A study of Ambystoma mexicanum with 6 samples.

Results

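The metabolising enzymes CP2J6 and ACY3 were followed in regenerating limbs of the axolotl, Ambystoma mexicanum, a salamander that regrows its limbs. CP2J6 is the assembled gene c1070122_g1, whose single transcript has the mouse cytochrome P450 CP2J6_MOUSE as its best protein match. ACY3 is the assembled gene c1085159_g2, of whose 4 transcripts 1 (i2) has the human aminoacylase ACY3_HUMAN as its best match in the tables used here. Together they account for 5 of the 1554055 assembled transcripts and 2 of the 1388798 assembled genes. An assembled gene is a set of transcript models that share an identifier up to its isoform part, and its value is the sum over those models. Both genes were chosen by their values in the comparison of iMDK-treated with DMSO-treated limbs reported here, in which they differed in opposite directions. Their differences are therefore given as a description, with no test. The same holds for the ranks, the ratio and the genes of similar pattern that are computed from these values below.

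The series compared limbs of juvenile white animals kept in iMDK, an inhibitor compound directed at midkine, a secreted growth factor, with limbs of animals kept in the solvent DMSO. Treatment ran, by the labels, from the moment of amputation to collection at 11 days post-amputation (dpa). Each condition had 3 libraries of poly(A)-selected RNA, called biological triplicates in the methods of the study. Which molecule iMDK binds is described by the study as not known, and untreated limbs were not analysed here.

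Cytochromes P450 of the CYP2J family are membrane-bound oxygenases that, in mammals, oxidize arachidonic acid and other fatty acids to epoxides and also attack drugs. They take their electrons from the reductase NCPR. What the axolotl enzyme matched to CP2J6 oxidizes is not known here. Aminoacylase 3 is a zinc-dependent hydrolase that, in mice and humans, removes the acetyl group from N-acetylated aromatic amino acids and from mercapturates. Mercapturates are the N-acetylated cysteine conjugates at the end of glutathione-based detoxification. In mammals aminoacylase 3 is known chiefly from organs such as the liver, gut and kidney.

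CP2J6 was higher in iMDK-treated limbs by a wide margin. Its value, in TPM (an abundance relative to all transcripts of a library, with transcript length taken into account) that the authors scaled between libraries, was 97.4, 100.4 and 45.4 TPM in iMDK 1, 2 and 3, against 0.863, 1.19 and 1.34 TPM in DMSO 1, 2 and 3. All 3 iMDK libraries lay above all 3 DMSO libraries, and the lowest iMDK library was 33.9 times the highest DMSO library. The means were 81.1 ± 30.9 TPM in iMDK and 1.13 ± 0.243 TPM in DMSO (SD, n = 3 each), a ratio of 71.8. On the log2(value + 0.5) scale the difference was 5.57 ± 0.34 (SE), and 4 of 44342 tested assembled genes had a larger positive one. Because 0.5 is added to each value, this scale understates the change of a gene as low as CP2J6 was in DMSO.

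ACY3 was lower in iMDK-treated limbs. Its summed value was 59.4, 30.7 and 31.3 TPM in iMDK 1, 2 and 3, against 207.8, 162.7 and 141.4 TPM in DMSO 1, 2 and 3. Again the groups did not overlap, and the lowest DMSO library was 2.38 times the highest iMDK library. The means were 40.5 ± 16.4 TPM in iMDK and 170.6 ± 33.9 TPM in DMSO (SD, n = 3 each), so that DMSO limbs held 4.22 times as much. The log2 difference was -2.11 ± 0.29 (SE), and 349 of 44342 tested assembled genes had a more negative one. These are bulk libraries, in which fewer cells of a type and less RNA per cell cannot be told apart.

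Groups without overlap were common across the matrix. Of all tested assembled genes, 8.38% were higher in every iMDK library than in every DMSO library and 8.23% were lower in every one, so the absence of overlap is by itself no mark of these enzymes. Among tested transcripts the shares were 8.59% and 8.41%. With limma, a linear model across all features with Benjamini-Hochberg adjusted p-values, 24 of 44342 assembled genes (0.0541%) and 280 of 51718 transcripts (0.541%) were called, at a fold above 2 with an adjusted p under 0.05. The calls were higher in iMDK for 0.0316% of assembled genes and 0.311% of transcripts, and lower in iMDK for 0.0226% of assembled genes and 0.23% of transcripts. A feature was tested when 3 or more of the 6 libraries had a value of 1 or above. Both assembled genes passed that filter, as did 4 of their 5 transcripts, and i4 of ACY3 did not.

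**Figure D1:**
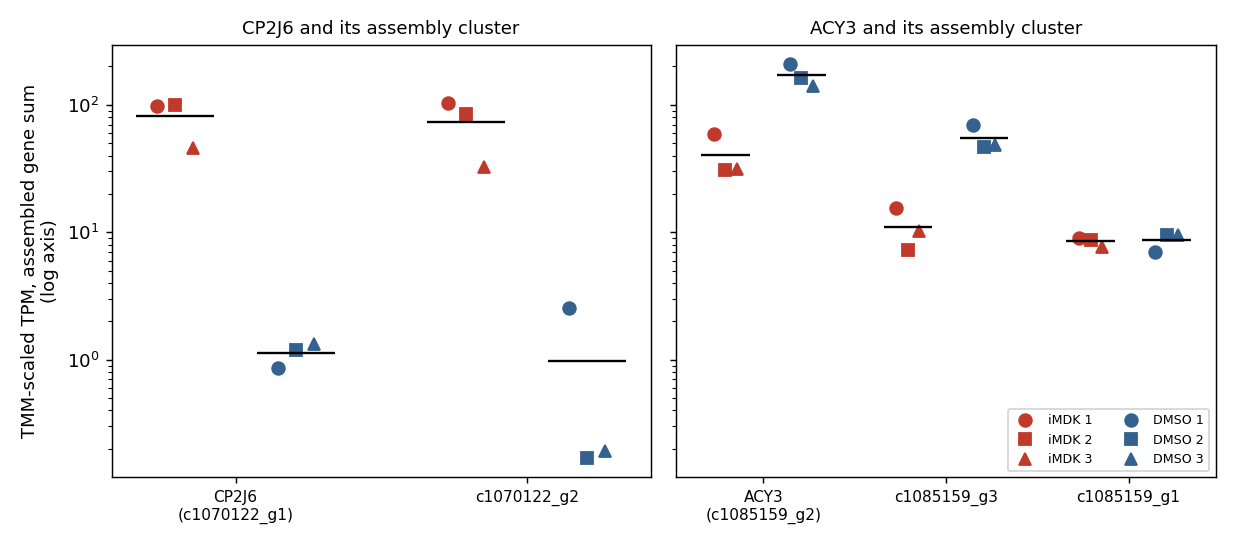
Summed value of CP2J6, ACY3 and the other assembled genes of the same assembly clusters in each library, in TMM-scaled TPM on a log axis. Red marks are the 3 iMDK libraries, blue marks the 3 DMSO libraries (circle, square and triangle for replicates 1, 2 and 3), and black lines the group means. CP2J6 and c1070122_g2 lie higher in all iMDK libraries, ACY3 and c1085159_g3 lie lower in all of them, and c1085159_g1 overlaps between groups.

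The order of both enzymes within a limb turned over between the conditions. Since both were chosen for differences in opposite directions, a shift of their ratio follows from that choice and is given as a description. TPM is scaled by transcript length, so levels of different assembled genes can be set side by side. Whether these transcript models hold the whole RNA of either enzyme is not known here, so the order is that of the models. In iMDK limbs the CP2J6 level was 1.64, 3.27 and 1.45 times that of ACY3 in libraries 1, 2 and 3. In DMSO limbs the ACY3 level was 240.8, 137.3 and 105.6 times that of CP2J6. Among the 44342 tested assembled genes, CP2J6 lay above 96.8, 97.3 and 94.3% in the iMDK libraries and above 23.5, 20.8 and 30.9% in the DMSO libraries. ACY3 lay above 95.0, 91.9 and 92.0% in iMDK and above 98.6, 98.6 and 98.0% in DMSO. ACY3 thus remained among the more abundant RNAs of the limb in both conditions, whereas CP2J6 was among the less abundant tested ones in DMSO.

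Within a condition the limbs also differed. Among iMDK limbs CP2J6 was lowest in iMDK 3, at 45.4 TPM, while ACY3 was highest in iMDK 1, at 59.4 TPM, with iMDK 2 and iMDK 3 nearly level. Among DMSO limbs CP2J6 was lowest and ACY3 highest in DMSO 1. The spread was wider under iMDK for both, with a coefficient of variation of 38.1% in iMDK and 21.5% in DMSO for CP2J6, and of 40.5% in iMDK and 19.9% in DMSO for ACY3. With 3 limbs per condition these spreads are themselves loosely known, and their difference was not tested.

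In the estimates per transcript, the lower ACY3 level was carried by 1 of its 4 transcripts. Reads shared by near-identical transcript models are divided among them, so this split is itself an estimate. Transcript i3 (c1085159_g2_i3) was at 51.9, 19.4 and 25.4 TPM in iMDK 1, 2 and 3, against 200.5, 155.4 and 130.4 TPM in DMSO 1, 2 and 3. Its groups did not overlap, and its log2 difference was -2.42 ± 0.38 (SE). Transcript i1 (c1085159_g2_i1) was at 3.27, 6.18 and 5.95 TPM in iMDK, against 5.60, 5.52 and 6.36 TPM in DMSO, with overlapping groups and a log2 difference of -0.21 ± 0.30 (SE). The difference of i1 turned to 0.055 without iMDK 1, the only library in which it fell below 5 TPM.

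Transcript i2 (c1085159_g2_i2), the one that carries the ACY3_HUMAN name, did not separate the conditions. It was at 4.21 and 5.09 TPM in iMDK 1 and iMDK 2 and listed at 0 in iMDK 3, against 1.67, 1.45 and 4.65 TPM in DMSO 1, 2 and 3. Its log2 difference of -0.24 ± 0.98 (SE) took the opposite sign without iMDK 3 (0.88) and without DMSO 3 (0.20). Such a 0 may be an estimate that failed, because reads shared by near-identical transcript models are divided among them. Transcript i4 was listed at 0 in 5 libraries and at 0.293 TPM in DMSO 2.

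Summed without i3, the ACY3 transcripts reached 7.48, 11.3 and 5.95 TPM in the iMDK libraries, against 7.27, 7.26 and 11.0 TPM in the DMSO libraries, and overlapped. Transcript i3 made up 87.4, 63.3 and 81.0% of the ACY3 sum in iMDK 1, 2 and 3, against 96.5, 95.5 and 92.2% in DMSO 1, 2 and 3. The share of i1 ran from 5.498 to 20.1% in iMDK and from 2.70 to 4.496% in DMSO, and that of i2 was 7.09, 16.6 and 0% in iMDK 1, 2 and 3, against 0.804, 0.890 and 3.29% in DMSO 1, 2 and 3. Transcripts i1, i2 and i4 as a whole made a larger part of a smaller total in each iMDK library than in any DMSO library, at levels that overlapped with those in DMSO. Transcript i3 has no protein match of its own in the tables used here, so that the name of the abundant RNA rests on its place in the same assembled gene.

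**Figure D2:**
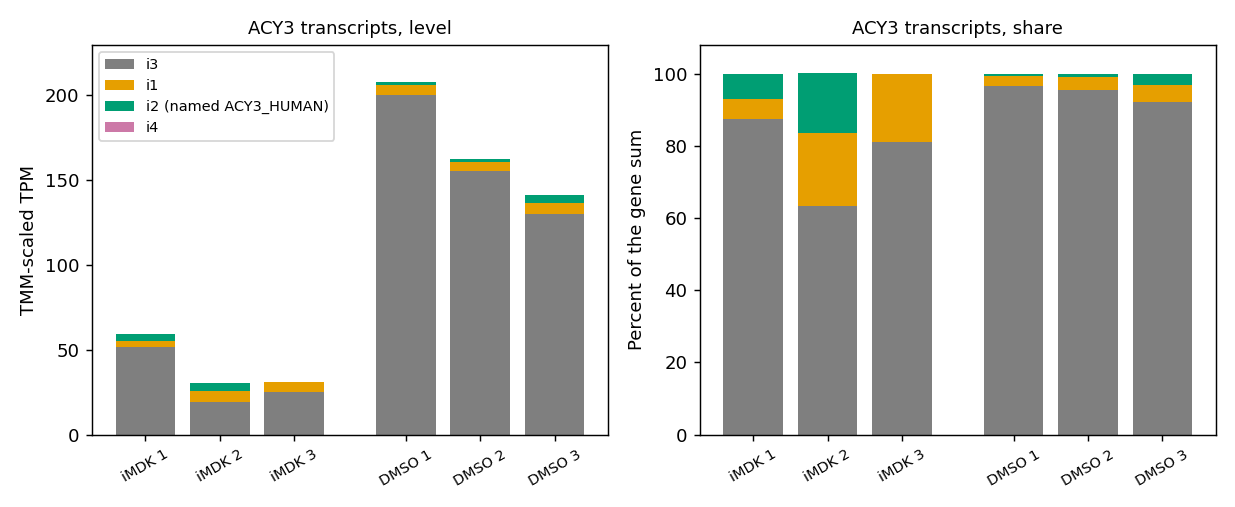
Transcripts of ACY3 in each library as stacked bars, on the left as TMM-scaled TPM and on the right as percent of the gene sum, with iMDK libraries before DMSO libraries. The grey part is i3, at 19.4 to 51.9 TPM in iMDK and 130.4 to 200.5 TPM in DMSO. The coloured parts (i1, i2 and i4) add up to between 5.95 and 11.3 TPM in all 6 libraries.

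The assembly placed other assembled genes in the same clusters of related sequence as both enzymes, and whether they belong to the same RNAs is not known here. They were looked up by identifier after the values of the enzymes were known, and are given without a test. The cluster of CP2J6 held 1 further assembled gene, c1070122_g2. It was at 102.9, 84.3 and 32.6 TPM in iMDK 1, 2 and 3, against 2.57, 0.170 and 0.191 TPM in DMSO 1, 2 and 3. Like CP2J6 it was lowest among the iMDK limbs in iMDK 3, and its level was 1.06, 0.840 and 0.718 times that of CP2J6 in iMDK 1, 2 and 3, against 2.97, 0.144 and 0.143 times in DMSO 1, 2 and 3, where both are low. Its 2 transcripts were each higher in all iMDK libraries, at 70.0, 56.1 and 21.2 TPM for i2 and 32.9, 28.2 and 11.4 TPM for i1. In DMSO, i2 was at 2.23 TPM in DMSO 1 and listed at 0 in DMSO 2 and DMSO 3, and i1 was at 0.334, 0.170 and 0.191 TPM.

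The cluster of ACY3 held 2 further assembled genes, which differed from each other. The first, c1085159_g3, was at 15.4, 7.28 and 10.3 TPM in iMDK 1, 2 and 3, against 69.3, 46.7 and 48.5 TPM in DMSO 1, 2 and 3, and the groups did not overlap. Its level relative to that of ACY3 spanned similar ranges in both conditions, at 0.259, 0.237 and 0.330 of it in iMDK and 0.334, 0.287 and 0.343 of it in DMSO. The other, c1085159_g1, was at 9.03, 8.76 and 7.63 TPM in iMDK, against 6.998, 9.499 and 9.559 TPM in DMSO, with overlapping groups and a log2 difference of -0.025 ± 0.20 (SE). None of the 3 further assembled genes has a protein match in the tables used here.

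To list RNAs with a pattern like that of each enzyme, the log2 values of each tested assembled gene were centred on their mean over the 6 libraries. The root mean square difference to the enzyme was then taken. This distance includes the difference between conditions by which both enzymes were chosen. Near genes thus largely have a similar difference by construction, and they are given as a description only. The nearest to CP2J6 were c1086765_g3 (0.51) and c1020209_g1 (0.58), both without a name. In the iMDK libraries c1086765_g3 was at 17.3, 12.2 and 8.64 TPM and c1020209_g1 at 16.97, 10.5 and 12.6 TPM, and both were listed at 0 in the 3 DMSO libraries. Both therefore passed the filter through the iMDK libraries alone. The cluster neighbour c1070122_g2 ranked 9 of 44340 (0.88). Among assembled genes with a name the nearest was HBB1 (HBB1_TRICR, c1020875_g2), a beta chain of hemoglobin, which ranked 51 (1.34) and was at 15.2, 18.0 and 28.9 TPM in iMDK, against 1.56, 1.495 and 2.02 TPM in DMSO. HBB1 was highest in iMDK 3, where CP2J6 was the lowest of the iMDK libraries. The epidermal transglutaminase TGM1 (1.61), the hemoglobin alpha chain HBA (1.93), the thyroid hormone deiodinase IOD3 (2.06) and a cysteine-rich secretory protein matched to CRVP_HOPST (2.13) came next and were farther away.

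For ACY3 the nearest assembled genes were c1075416_g10 (0.16), at no more than 2.43 TPM in any library, and the cluster neighbour c1085159_g3 (0.18), which ranked 2 of 44340. Of these, c1075416_g10 passed the filter through the DMSO libraries alone. Among assembled genes with a name the nearest, at rank 462 (0.55), matched the transposase-derived nuclease HARB1_XENLA (c1081710_g3). It was at 2.36, 3.86 and 1.77 TPM in iMDK, against 10.4, 8.04 and 6.36 TPM in DMSO. RENBP (0.67), the renin-binding protein, an epimerase of N-acetylated amino sugars, ranked next and had overlapping groups at 12.7, 4.67 and 6.12 TPM in iMDK, against 15.9, 10.5 and 14.5 TPM in DMSO. The replication origin subunit ORC6 (0.68), the Kit ligand SCF (0.69) and a HARB1_BOVIN match (0.71) followed.

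Genes of the pathways around both enzymes were collected in 8 lists from the transcripts that the study names. Of 60 such transcripts from 52 assembled genes, 41 transcripts and 48 assembled genes could be tested. With limma 0 of them were called at either level, with a smallest adjusted p of 0.0994 among transcripts and 0.230 among assembled genes. Over all tested features only 0.541% of transcripts and 0.0541% of assembled genes were called. In lists of this size 0 calls, here and in each list below, therefore say little about these pathways. At an unadjusted p under 0.05 there were 6 of the 41 transcripts (14.6%, against 11.2% of all tested transcripts) and 3 of the 48 assembled genes (6.25%, against 10.7% of all tested assembled genes). The median log2 difference of the 48 was 0.070, against -0.012 over all tested assembled genes. Of the 48, 30 were above 0 and 18 below, while 49.3% of all tested assembled genes were above 0. Whether the signs of the 48 differ from the rest was not tested.

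Of the other cytochromes P450 and their electron donors, 4 of 5 assembled genes could be tested. None of the 4 was called, and 0 had an unadjusted p under 0.05. CP3A5, matched to a human drug-metabolising P450, was at 8.08, 6.38 and 6.72 TPM in iMDK, against 8.504, 7.64 and 9.75 TPM in DMSO (limma adjusted p = 0.753). CP27B, which activates vitamin D, was at 23.8, 28.4 and 23.97 TPM in iMDK, against 35.5, 19.1 and 19.9 TPM in DMSO (limma adjusted p = 0.924). NCPR, the reductase that supplies electrons to P450 enzymes of the endoplasmic reticulum, was at 14.01, 12.1 and 13.9 TPM in iMDK, against 16.1, 15.5 and 12.5 TPM in DMSO (limma adjusted p = 0.842). The transcript that carries the NCPR name was at no more than 0.119 TPM in any library. Nearly all of the sum thus came from other transcripts of the assembled gene. The remaining tested member, the adrenodoxin-like ferredoxin ADXL, had a log2 difference below 0.001 in size. Its sum was 25.5 to 37.7 TPM over all libraries, of which the transcript that carries the name held 1.31 to 2.50 TPM. CP1B1, an oxidase of steroids and polycyclic compounds, was too low to test, at 0.863, 2.06 and 1.71 TPM in iMDK, against 0.745, 0.391 and 0.717 TPM in DMSO, without overlap.

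Around ACY3, none of the 3 assembled genes of glutathione conjugation and its peptidases was called, 0 had an unadjusted p under 0.05, and all 3 had log2 differences above 0. That direction holds for the sums only, since of the 4 tested transcripts with a name 2 lay above 0 and 2 below. MGST3, a microsomal glutathione transferase, was the most abundant, at 567, 397 and 451 TPM in iMDK, against 421, 199 and 374 TPM in DMSO (limma adjusted p = 0.622). Nearly all of that sum came from other transcripts of the assembled gene. The one that carries the MGST3 name was at 3.96, 1.70 and 3.09 TPM in iMDK, against 3.26, 0 and 1.59 TPM in DMSO. The cytosolic glutathione transferases named GSTM1 and GSTM2 share 1 assembled gene, at 301, 264 and 267 TPM in iMDK, against 326, 221 and 245 TPM in DMSO (limma adjusted p = 0.892). DPEP2, a dipeptidase that also cleaves leukotriene D4, was at 7.56, 7.90 and 5.37 TPM in iMDK, against 6.37, 4.22 and 5.09 TPM in DMSO (limma adjusted p = 0.715). The transcript that carries the DPEP2 name went the other way, with a log2 difference of -1.42 ± 0.86 (SE). It was at 0, 2.92 and 0 TPM in iMDK, against 3.64, 1.28 and 1.73 TPM in DMSO.

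The next list held genes of arachidonic acid and fatty acid amide metabolism, to which substrates of the CYP2J family belong. Of its 7 tested assembled genes 0 were called, 0 had an unadjusted p under 0.05, and 4 lay above 0 and 3 below. The 6 tested transcripts with a name leaned the other way, with 2 above 0, 4 below and a median log2 difference of -0.66. Of these 6, 0 were called and 1 had an unadjusted p under 0.05 (limma). FAAH1, which hydrolyses fatty acid amides, was at 6.26, 8.52 and 6.14 TPM in iMDK, against 7.58, 10.02 and 12.9 TPM in DMSO (limma adjusted p = 0.578). The transcript that carries the FAAH1 name was at 1.73, 3.52 and 4.30 TPM in iMDK, against 5.81, 4.44 and 6.52 TPM in DMSO (limma adjusted p = 0.502). PGES2, a prostaglandin E synthase, was at 13.7, 14.4 and 12.4 TPM in iMDK, against 17.2 and 18.8 TPM in DMSO 1 and DMSO 2, with DMSO 3 lower than these but above all 3 iMDK libraries (limma adjusted p = 0.585).

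The 3 assembled genes with an unadjusted p under 0.05 came from 3 different lists, were higher in every iMDK library, and did not pass after adjustment. They were the 3 of 48 that lay higher without overlap, and 2 of 48, PGES2 and PPARD, lay lower without overlap. Over all tested assembled genes the shares were 8.38% and 8.23%. PPARD, a nuclear receptor, was at 24.6, 24.4 and 24.1 TPM in iMDK, against 26.3, 27.8 and 25.3 TPM in DMSO (limma adjusted p = 0.835). TDH, a mitochondrial threonine dehydrogenase of the amino acid list, was at 59.1, 52.98 and 62.1 TPM in iMDK, against 23.2, 14.9 and 39.3 TPM in DMSO (log2 difference 1.26 ± 0.33 SE, limma adjusted p = 0.230). TRXR1, the thioredoxin reductase that keeps cytosolic thiols reduced, was at 27.7, 20.6 and 26.9 TPM in iMDK, against 4.56, 8.26 and 17.3 TPM in DMSO (log2 difference 1.46 ± 0.44 SE, limma adjusted p = 0.291). IOD3, the deiodinase that inactivates thyroid hormone, was at 10.6, 17.8 and 6.89 TPM in iMDK, against 4.70, 0.966 and 5.23 TPM in DMSO (log2 difference 1.70 ± 0.60 SE, limma adjusted p = 0.372). In the lists of fatty acid oxidation (7 tested) and of nuclear receptors and their co-regulators (7 tested), 0 assembled genes were called and 0 had an unadjusted p under 0.05. The median log2 difference was 0.0064 for fatty acid oxidation and 0.14 for nuclear receptors. The lists that held IOD3 (other small-molecule hydrolases and oxidoreductases, 12 tested), TDH (amino acid metabolism, 9 tested) and TRXR1 (peroxide and thiol redox enzymes, 3 tested) had medians of 0.073, 0.025 and 0.12 and no call.

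**Figure D3:**
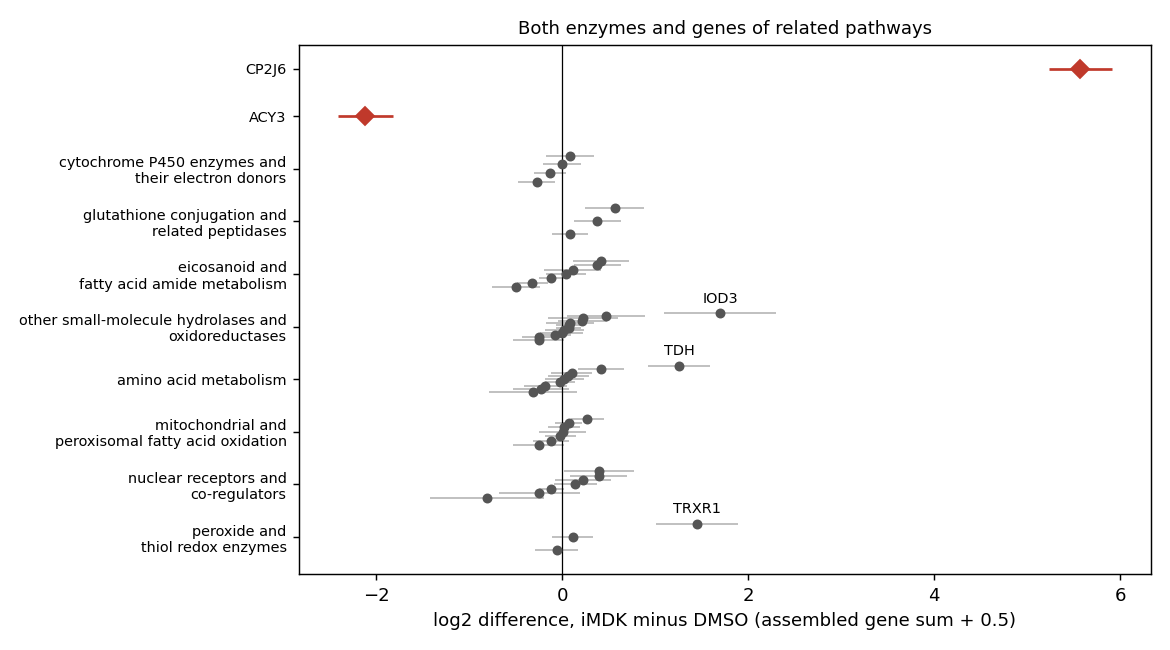
Log2 difference (iMDK minus DMSO) of assembled gene sums for CP2J6 and ACY3 (red diamonds, shown as a description) and for the tested genes of 8 related lists (grey points), with bars of 1 SE. Names are printed for the 3 list genes with an unadjusted p under 0.05, and none of the grey points was called by limma. The list genes lie between -0.80 and 1.70, against 5.57 for CP2J6 and -2.11 for ACY3.

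Both differences were read beside markers of the cells a limb holds. Keratinocyte markers (7 assembled genes) summed to 11040 to 12650 TPM in iMDK and 7627 to 11740 TPM in DMSO, connective tissue markers (3) to 759 to 775 TPM in iMDK and 444 to 864 TPM in DMSO, and macrophage markers (4) to 498 to 2277 TPM in iMDK and 340 to 1980 TPM in DMSO. The macrophage sum was mostly the MPEG1_HUMAN match, at 450 to 2207 TPM in iMDK and 297 to 1909 TPM in DMSO. The keratinocyte sum was mostly the K2C5_RAT match, at 7219 to 8348 TPM in iMDK and 4794 to 7362 TPM in DMSO. Endothelial markers (2) summed to 20.99 to 33.01 TPM in iMDK and 14.4 to 21.04 TPM in DMSO, and muscle markers (2) to 2.31 to 5.31 TPM in iMDK and 1.12 to 2.64 TPM in DMSO. Mucus cell markers (2) were near 0, at up to 4.10 TPM in iMDK and 4.75 TPM in DMSO. These lists overlapped between the conditions, the endothelial one only narrowly. The mean was higher in iMDK for all 7 keratinocyte, all 3 connective tissue and all 2 endothelial genes. On the log2 scale 6 of the keratinocyte genes were above 0 and 1 below, the K2C5_PANTR match at -0.018 ± 0.27 (SE). The mean was also higher for 3 of 4 macrophage genes, 1 of 2 muscle genes and 1 of 2 mucus cell genes. Overlapping sums thus do not show an unchanged cell composition. Erythrocyte markers (4) did not overlap, with sums of 26.03 to 48.2 TPM in iMDK and 6.89 to 14.8 TPM in DMSO. That separation rested on HBB1, the one erythrocyte marker that was called (limma adjusted p = 0.0389). Without HBB1 the other 3 summed to 10.8, 13.1 and 19.3 TPM in iMDK, against 6.49, 5.39 and 12.8 TPM in DMSO, and overlapped. Of these 3, HBA did not overlap between conditions, whereas HEM0 and HBA2 did, and HBA2 had a log2 difference of -0.12. The part of any of these cell types in the levels of CP2J6 and ACY3 was not tested.

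Both differences kept their sign and moved by less than the spread between replicates under each of 14 other ways of computing them. The log2 difference of CP2J6 ranged from 5.19 (a pseudocount of 1) to 5.98 (a pseudocount of 0.1), and from 5.38 to 5.94 when 1 library was left out. That of ACY3 ranged from -2.42 (without iMDK 1) to -1.95 (without iMDK 2). None of these alternatives could have turned a sign, so the kept signs are no test of it. The other filters, the replicate block and the fit without the trend leave the log2 difference of a gene unchanged by construction. Since the groups of both genes do not overlap, leaving out a library or changing the pseudocount could not turn either sign. The other scalings could not either, because they changed the libraries by too little. Undoing the TMM scaling rests on library sums of 910461 to 1103877, and the factors of the other scaling ran from 0.9996 to 1.066. The groups lay 2.38-fold apart for ACY3 and 33.9-fold apart for CP2J6.

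**Figure D4:**
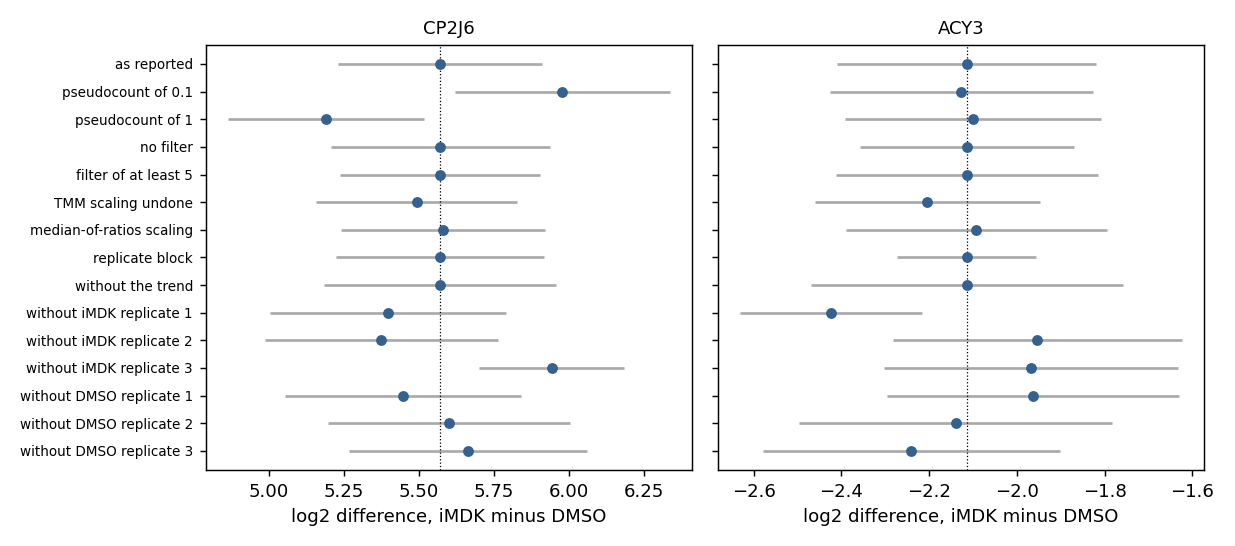
Log2 difference (iMDK minus DMSO) of CP2J6 and ACY3 as reported and under 14 alternatives, with bars of 1 SE and a dotted line at the reported value. The points lie between 5.19 and 5.98 for CP2J6 and between -2.42 and -1.95 for ACY3.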

How the data were processed

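Poly(A) RNA from 3 iMDK-treated and 3 DMSO-treated limbs was sequenced from Nextera XT libraries. Per the labels and methods, reads were cleaned with Trimmomatic, and kallisto estimated their abundance on an assembled transcriptome of the axolotl, without a stated version. What the authors deposited is a signal, the TPM of each assembled transcript times a TMM factor of its library, so library sums ran from 910461 to 1103877. Read totals cannot be had from it, so the depth is unknown and no counting interval was computed. Between 126965 and 198094 transcripts were above 0 in a library, and log2 values correlated at 0.773 to 0.806 within and 0.733 to 0.770 between conditions. The labels name no batch.

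Groups came from the sample titles. In R 4.3.3, limma 3.58.1 was fitted to log2(value + 0.5) of all 6 libraries with moderated variances, a trend on the mean, 2-sided tests and no covariate, for transcripts and for sums per assembled gene. The p-values reflect how these limbs vary. Calls, at a fold above 2 and an adjusted p under 0.05, used the thresholds of the study. The study used another tool, made for counts, which these values are not. The limma fit and its calls were tested on simulated data for transcripts and for assembled genes, while the other summaries were not. In the simulation all features shared a common spread, and large changes were put only into features with a high mean. That is an easier case than these limbs, so it does not show how reliable the calls are here. The R package data.table (release 1.17.8) and pandas 2.3.3 read the files, and matplotlib 3.10.9 in Python 3.11.15 drew the plots.

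Names are blastx matches that the study lists for 1675 transcripts of the same assembly in its skin flap experiment, a selection made on other limbs. The sum of a named assembled gene also holds any of its transcripts that have no name. Of the matrix identifiers, 0 matched a RefSeq gene. The members and the lists were chosen with earlier results of these data known. The rule for named genes took every member transcript, up to 4 transcripts per list by smallest p, and the nearest 5 named and 2 unnamed assembled genes by pattern. Markers entered by the sum of their list. The text gives a part of what the rule took. NCPR, CP1B1, the neighbours in the assembly clusters and the single markers MPEG1, K2C5, HEM0 and HBA2 lie outside the rule. They were picked once their values had been seen, as was the erythrocyte sum without HBB1. Alternatives were other pseudocounts (0.1 and 1), filters (none and at least 5) and scalings, a replicate block, no trend, and each library left out.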

Additional observations from a re-analysis of the deposited data

How the results depend on the processing

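The log2 differences of CP2J6 and ACY3 kept their sign under all 14 alternatives, none of which could turn it, while the background counts moved. The 280 called transcripts became 427 with no filter, 168 with a filter of at least 5, 1303 without the trend, and 78 to 138 without 1 library. The 24 called assembled genes became 9 with a pseudocount of 0.1, 438 with no filter, 38 with the stricter filter, 14 when the TMM scaling was undone, 820 without the trend, and 0 to 3 without 1 library, whichever it was. Of the listed pathway transcripts 0 were called, against 1 with no filter (NIT2B) and 0 to 2 without 1 library (PGES2 and HCDH transcripts without iMDK 2). No listed assembled gene was called under any of the 14 alternatives. The log2 difference of ACY3 transcript i1 ranged from -0.36 to 0.055 without 1 library, and that of i2 from -0.86 to 0.88. Transcript i2 could not be fitted with the filter of at least 5. The causes were not tested.

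Same-numbered libraries of both conditions hardly deviated together (correlations of 0.062, 0.039 and 0.010), and those with different numbers had correlations from -0.084 to 0.051. With 3 libraries per condition this cannot decide whether the numbers pair samples. With the number as a replicate block 30 transcripts and 0 assembled genes were called. The log2 differences of CP2J6 (5.57) and ACY3 (-2.11) cannot change with this block, because each number occurs once per condition. Their SE can, and it went from 0.34 to 0.35 for CP2J6 and from 0.29 to 0.16 for ACY3. With 3 limbs per condition and no read totals, levels near 1 TPM, such as CP2J6 in DMSO, are loosely known.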

Other observations

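Some listed enzymes had single transcripts that were near or at 0 in part of the libraries, and none of those given here passed the test. A transcript of NIT2B (NIT2B_XENLA, c1066687_g1_i4), an amidase that hydrolyses the keto forms of glutamine and asparagine, was at 6.72, 14.6 and 13.9 TPM in iMDK, against 0.581, 1.85 and 0.001 TPM in DMSO, and had the smallest p of the listed transcripts (limma adjusted p = 0.0994). Its assembled gene was at 92.0, 70.9 and 64.0 TPM in iMDK, against 91.3, 63.3 and 68.6 TPM in DMSO. A transcript of PGES2 (c1079695_g1_i4) was listed at 0 in iMDK 1 and iMDK 3 and was at 9.31 TPM in iMDK 2, against 9.91, 18.8 and 9.27 TPM in DMSO, so that its groups overlapped (limma adjusted p = 0.364). A transcript of HCDH (HCDH_PIG, c1090476_g2_i2), a dehydrogenase of mitochondrial fatty acid oxidation, was likewise listed at 0 in iMDK 1 and iMDK 3 and at 15.4 TPM in iMDK 2, against 14.8, 8.01 and 10.3 TPM in DMSO (limma adjusted p = 0.507).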
